A study of Mus musculus with 9 samples.

Results

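The ectoenzymes and the receptor that handle extracellular adenosine and NAD were followed in nascent RNA of cytotoxic (CD8+) T lymphocytes of the mouse. The group was defined by gene symbol and holds 5 genes, Entpd1, Nt5e, Cd38, Adora2a and Ada, of 37022 genes with a row in the tables. Of each gene's annotated transcript rows, the row whose gene-body signal, averaged over the 9 libraries, was highest was used. Testing was limited to 15942 genes whose signal was 50 or more in 3 or more libraries, and all 5 were among them.

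Newly made RNA was marked with 0.2 mM 5-ethynyl uridine for 30 minutes, captured through biotin and read from both ends over 100 bases. There are 3 groups, each with 3 libraries: acute stimulation (Acute), chronic stimulation (Chronic), and chronic stimulation with inhibition of MEK, the kinase that activates ERK (ChronicMEKi). The question of the series is which nascent transcription goes with exhaustion, the dysfunction of T cells that are stimulated without pause. The mouse strain, genotype and age, the manner and length of stimulation, and the inhibitor are not given in the sources used here. Nothing in the labels says that the replicates came from separate animals or cultures, so p-values measure only the spread between these samples, which may be technical.

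CD39, the product of Entpd1, strips phosphates from extracellular ATP and ADP to give AMP, and CD73, the product of Nt5e, turns AMP into adenosine. Adenosine binds Adora2a, a receptor coupled to the stimulatory G protein, which raises cAMP and restrains T cell receptor signalling, and adenosine deaminase (Ada) removes adenosine by converting it to inosine. CD38 consumes NAD to give mainly ADP-ribose, which other ectoenzymes can turn into AMP, and both CD39 and CD38 are widely used surface markers of exhausted CD8+ T cells.

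The deposited gene-body totals, over 1 row per gene, lay between 48601757 and 52216192 per library, and depth in reads is unknown. Rows that resemble ribosomal RNA took 19.1 to 22.3% of the signal in the acute, 34.2 to 40.6% in the chronic and 29.0 to 36.1% in the MEK-inhibited libraries, so the choice of scaling matters for small differences. Values below are gene-body signal after a trimmed-mean scaling of the libraries, and a gene is called where limma's adjusted p is under 0.05. Against this scaling, totals as deposited shifted the median gene by -0.47 on the log2 scale between chronic and acute stimulation, and by 0.16 between MEK-inhibited and chronic stimulation. Dusp6, a textbook target of ERK signalling, had a mean of 2522 ± 297 under acute stimulation, 2413 ± 96.6 under chronic stimulation and 201 ± 9.08 with MEK inhibition (SD, n = 3). All 9 markers of CD8 T cells passed the filter. Their summed signal was 30586 to 36276 in acute, 21752 to 23624 in chronic and 24806 to 27909 in MEK-inhibited libraries. The markers did not move together. Cd8a had means of 4091, 976 and 2843 and Lck 10477, 7186 and 7865 in acute, chronic and MEK-inhibited libraries. Cd3e, Cd8b1, Cd2 and Zap70 also had lower means in chronic than in acute libraries. In the same order, Cd3d had 1274, 1253 and 1379, Cd3g 1510, 1604 and 1510, and Cd5 1694, 1952 and 1290. In bulk RNA, fewer cells of a type and less RNA per cell cannot be told apart.

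Per kilobase of the row used, Nt5e was the highest of the 5 genes under acute stimulation, and under chronic stimulation it was at the bottom together with Cd38. Its level was 82.9 ± 4.32 per kb (SD, n = 3) in acute libraries, against 24.5 ± 1.58 for Entpd1, 23.1 ± 4.12 for Adora2a, 11.6 ± 0.301 for Ada and 3.77 ± 0.747 for Cd38. Entpd1 and Adora2a did not differ beyond their spread there. In chronic libraries Entpd1 led with 29.9 ± 2.25 per kb, followed by Adora2a with 16.5 ± 1.62, Ada with 9.67 ± 2.83, Cd38 with 6.48 ± 2.11 and Nt5e with 6.35 ± 2.33. The last 3 of these overlapped in their spread. In MEK-inhibited libraries Adora2a led with 43.3 ± 2.72 per kb, and Entpd1 had 21.6 ± 1.01, Nt5e 15.3 ± 2.97, Ada 14.1 ± 3.83 and Cd38 9.37 ± 0.272. Nt5e and Ada did not differ beyond their spread in that group.

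**Figure D1:**
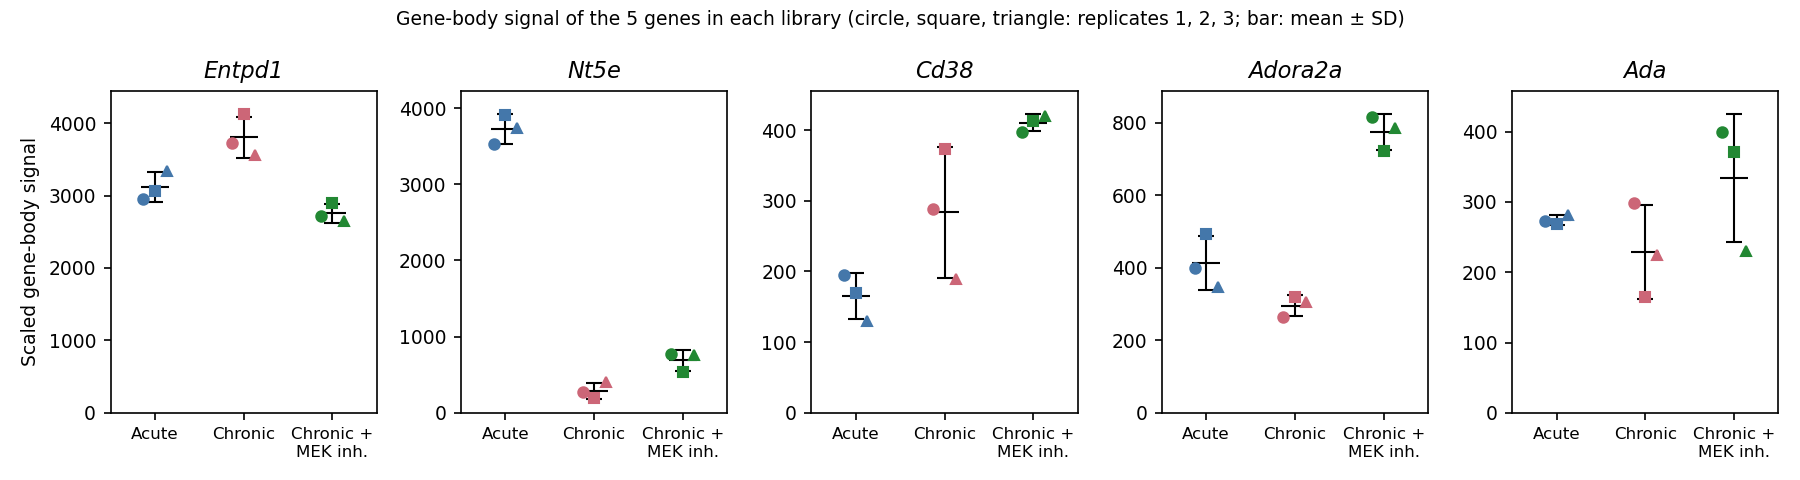
Scaled gene-body signal (vertical axis, from 0) of the 5 genes in each library, with the groups Acute, Chronic and ChronicMEKi on the horizontal axis. Points are libraries, with a symbol per replicate number, and bars are the mean ± SD. Nt5e is between 3523 and 3910 in acute libraries and between 191 and 398 in chronic ones, while Adora2a is highest in the MEK-inhibited libraries.

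Between chronic and acute stimulation, 3 of the 5 genes were called: Nt5e fell, and Entpd1 and Cd38 rose. Of all tested genes 33.3% were called in that comparison, 17.9% as higher and 15.4% as lower. Between MEK-inhibited and chronic stimulation 3 of 5 were called, against 16.7% of all tested genes (8.54% higher, 8.15% lower): Nt5e and Adora2a rose and Entpd1 fell. Between MEK-inhibited chronic and acute stimulation 3 of 5 were called, against 25.6% of all tested genes (13.1% higher, 12.5% lower): Cd38 and Adora2a rose and Nt5e fell. Ada was called in none of these comparisons. The comparisons share libraries, so their values stand side by side below and are not independent. The 3 calls between chronic and acute stimulation were of unequal firmness. With no filter, or with only the libraries of those groups in the fit, Nt5e alone was called, and the same held without acute library 2, chronic library 1 or chronic library 2. The scaling also changed which genes were called. On the scale as deposited and with library totals these were Nt5e, Adora2a and Ada, all lower in chronic stimulation. Without the ribosomal RNA-like rows they were Nt5e and Adora2a, both lower.

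**Figure D2:**
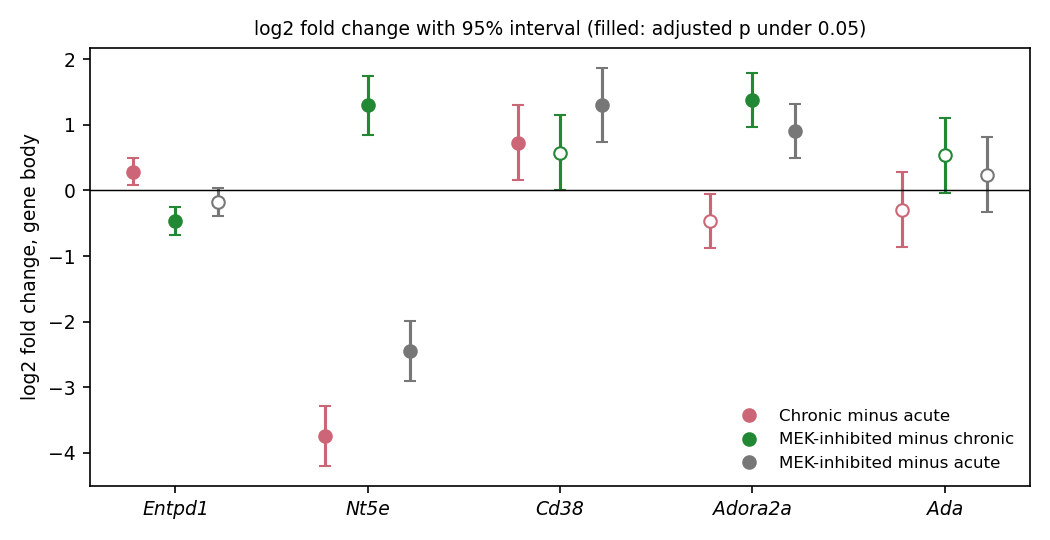
Fitted log2 fold change of gene-body signal (vertical axis) for each of the 5 genes in the 3 comparisons, with the 95% interval as a line; filled points had an adjusted p under 0.05. The largest change is that of Nt5e between chronic and acute stimulation, at -3.75. For Entpd1 the value of 0.29 in that comparison takes the opposite sign, -0.19, on the scale as deposited.

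Nt5e, which makes the adenosine, had the largest difference of the group. It lies on chromosome 9 (GRCm38 88327197-88372092, plus strand), overlaps no other annotated gene and has 4 annotated rows in the tables. Its scaled gene-body signal was 3523, 3910 and 3738 in the acute libraries, 266, 191 and 398 in the chronic libraries, and 775, 534 and 753 in the MEK-inhibited libraries. Every acute library lay far above every chronic library, the MEK-inhibited libraries lay between them, and no groups overlapped. Of all tested genes 44.1% had groups that do not overlap between chronic and acute, 31.6% between MEK-inhibited and chronic, and 41.0% between MEK-inhibited and acute stimulation. The acute mean of 3723 ± 194 was 13.1-fold the chronic mean of 285 ± 105 (SD, n = 3).

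On the log2 scale Nt5e fell by 3.75 from acute to chronic stimulation (SE 0.22, limma adjusted p = 4.59e-10), and only 32 of the 15942 tested genes (0.201%) fell further. It was higher by 1.30 with MEK inhibition than in chronic stimulation (95% interval 0.84 to 1.75, adjusted p = 0.000315). It nevertheless stayed 2.45 below acute stimulation (log2 fold change -2.45, adjusted p = 1.98e-07), where 60 genes (0.376%) fell further. Nt5e kept these 3 calls and their directions under every scaling, filter, pseudocount and leave-one-out fit run.

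Nt5e is also made by B cells and regulatory T cells, so their markers are given here. Of 6 B cell markers 2 passed the filter, and their 6 summed to 554 to 572 in acute, 196 to 252 in chronic and 168 to 444 in MEK-inhibited libraries. Those that passed had their highest mean in acute and lowest in chronic libraries, with Cd79a at 338, 107 and 151 and Pax5 at 155, 72.8 and 106 in acute, chronic and MEK-inhibited libraries. Ms4a1 was near 0, with group means of 3.79 to 15.8. Cd4, the coreceptor of helper and regulatory T cells, had group means of 445, 236 and 114 in acute, chronic and MEK-inhibited libraries, while Zbtb7b, a factor of the helper lineage, had its means in the reverse order, at 795, 1009 and 1742. Foxp3 was not analysed here. The part of these cells in the Nt5e values was not tested.

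The start of Nt5e bears on where its signal near the promoter can be read. The row used begins 412 bases before the start that RefSeq gives, and another annotated row, of 3.6 kb, begins 9 bases after it. The 30 bases around the RefSeq start (RefSeq, GRCm38.p6, chr9:88327594-88327623, plus strand) are shown because pause-region signal was found there and hardly at the first annotated start. The start base is in capitals.
Nt5e start: cctcctctactccgcAgtttagtagaggcc

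Pause-region signal is taken near a row's start. At the first annotated start it was 1.77, 10.7 and 13.9 in acute, 0, 0 and 14.02 in chronic, and 4.71, 0.756 and 0 in MEK-inhibited libraries, with overlapping groups and too little for the filter. At the start 421 bases further on it was 78.9, 137 and 106 in acute, 2.08, 1.17 and 8.01 in chronic, and 33.6, 27.2 and 48.8 in MEK-inhibited libraries. There the groups did not overlap and followed the same order as the gene body, acute above MEK-inhibited above chronic. This row passed the filter through the acute libraries alone, and it was looked at after the rows had been seen. Its values are therefore given without a test, with means of 107 ± 29.1 in acute, 3.75 ± 3.72 in chronic and 36.5 ± 11.1 in MEK-inhibited libraries (SD, n = 3).

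Gene-body signal of the 3.6 kb row from that start was 455, 486 and 497 in acute, 20.4, 2.43 and 33.0 in chronic, and 98.3, 64.5 and 84.1 in MEK-inhibited libraries. The first kilobases of Nt5e thus followed the whole gene, with log2 fold changes of -4.65, 2.16 and -2.49 in the order given above. The 40.2 kb row gave -3.75, 1.20 and -2.55. In a short row of 2.32 kb that begins 28490 bases into the gene, chronic library 3 stood apart with 88.7, against 4.53 and 0 in the other chronic libraries. Between MEK-inhibited and chronic stimulation this row had -0.59 (limma adjusted p = 0.752), opposite in sign to the other rows. It had 58.8, 74.6 and 80.0 in acute and 7.99, 3.27 and 7.27 in MEK-inhibited libraries. Without the acute libraries this row would not have passed the filter, so its comparisons with acute stimulation are given without a test. Their log2 fold changes were -2.20 for chronic and -2.78 for MEK-inhibited libraries.

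**Figure D3:**
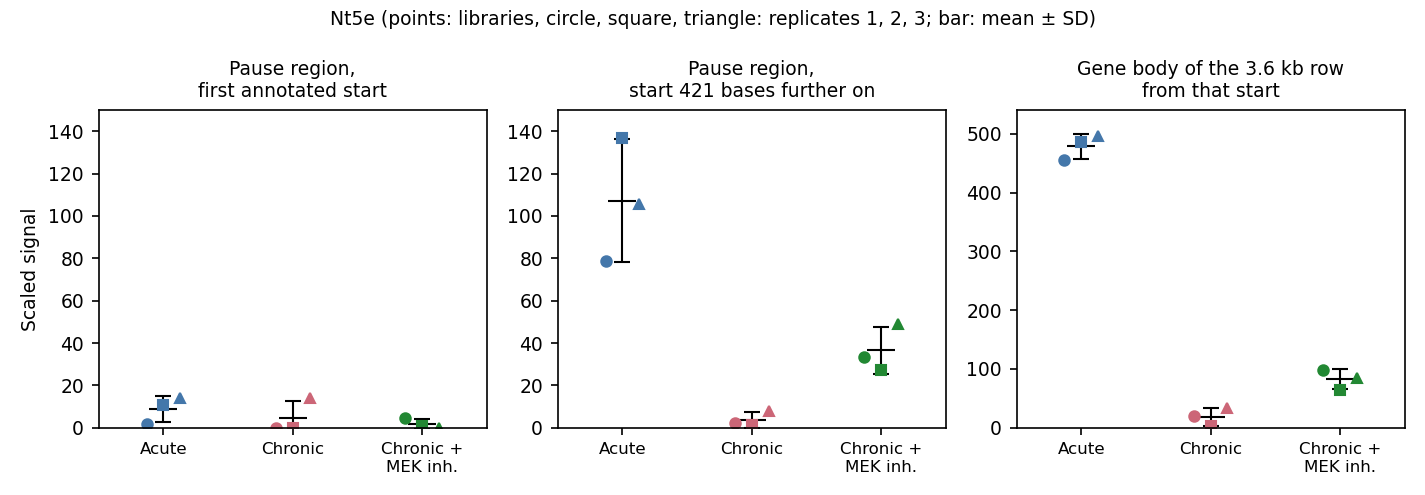
Scaled signal of Nt5e (vertical axes, from 0) by group: pause region at the first annotated start, pause region at the start 421 bases further on, and gene body of the 3.6 kb row from that start. Points are libraries and bars the mean ± SD; the first annotated start stays at or below 14.02, while the later start has means of 107 in acute, 3.75 in chronic and 36.5 in MEK-inhibited libraries.

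Entpd1, which supplies AMP to CD73, moved much less and in other directions. It lies on chromosome 19 (GRCm38 40612366-40741602, plus strand) and has 10 annotated rows. The row used, of 127.4 kb, had a scaled gene-body signal of 2949, 3059 and 3340 in acute, 3725, 4120 and 3564 in chronic, and 2720, 2895 and 2644 in MEK-inhibited libraries. Chronic libraries were the highest and MEK-inhibited libraries the lowest, with no overlap between groups. The means were 3116 ± 202, 3803 ± 286 and 2753 ± 129 (SD, n = 3).

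Entpd1 was higher by 0.29 on the log2 scale in chronic than in acute stimulation (SE 0.10, limma adjusted p = 0.0334), but with the scale as deposited or library totals the sign turned, to -0.19 and -0.20 with adjusted p of 0.261 and 0.232. That call was also lost in 4 of 9 leave-one-out fits, those without acute library 1 or 2 or chronic library 1 or 2, with adjusted p from 0.0515 to 0.145. Entpd1 fell by 0.46 with MEK inhibition relative to chronic stimulation (adjusted p = 0.00261), a call that held in every leave-one-out fit and fell away on the scale as deposited (-0.30, adjusted p = 0.147) and with library totals (-0.33, adjusted p = 0.133). MEK-inhibited chronic and acute libraries differed by -0.18 (adjusted p = 0.218), which became a called -0.49 on the scale as deposited (adjusted p = 0.00698). Myeloid cells also carry CD39. Of 7 myeloid markers 3 passed the filter, the sum of the 7 was 299.5 to 357 in acute, 217 to 259 in chronic and 165 to 347 in MEK-inhibited libraries, and Lyz2 and Cd14 were near 0. Those that passed had group means of 77.8, 54.8 and 79.4 (Csf1r), 89.1, 62.7 and 52.2 (Adgre1) and 92.2, 103 and 109 (Cd68) in acute, chronic and MEK-inhibited libraries. Their part in the Entpd1 values was not tested.

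The annotation gives Entpd1 starts in 2 places, 47.4 kb apart. Both are shown because the row used begins near the upstream start, while most rows that passed the filter begin near the internal start. Both are from RefSeq, GRCm38.p6, plus strand, at chr19:40612351-40612380 and chr19:40659755-40659784, with the start base in capitals.
Entpd1 upstream start: tggttcccgttacctGgcaaccgctgggag
Entpd1 internal start: tagggtctgttatatCtctgaaccgtgagt

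The row from the internal start covers 81.8 kb. Its gene-body signal was 2257, 2388 and 2387 in acute, 2784, 2818 and 2353 in chronic, and 1726, 1751 and 1683 in MEK-inhibited libraries. Every MEK-inhibited library lay below all acute and chronic libraries, and chronic library 3 fell within the acute range. Its log2 fold changes were 0.17 between chronic and acute (limma adjusted p = 0.229), -0.62 between MEK-inhibited and chronic (adjusted p = 0.000351) and -0.45 between MEK-inhibited and acute stimulation (adjusted p = 0.00435). The calls with MEK inhibition held under every scaling and leave-one-out fit run on this row. The value of 0.17 was not called under any of them, and it turned to -0.30 on the scale as deposited and -0.32 with library totals.

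Of the 10 rows, 8 passed the filter, and these share most of their sequence. All 8 fell with MEK inhibition relative to chronic stimulation, by log2 fold changes of -0.88 to -0.46 and with adjusted p of 0.000351 to 0.00338. Relative to acute stimulation 6 of the 8 were called lower with MEK inhibition. Only the long row was called between chronic and acute stimulation.

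The signal of the long row minus that of the internal row describes the upstream stretch. It was 692, 671 and 953 in acute, 941, 1302 and 1212 in chronic, and 994, 1144 and 961 in MEK-inhibited libraries. The acute libraries were lowest on average, and chronic library 1 fell within their range. This difference was taken after the rows had been seen. It was higher by 0.58 in chronic than in acute stimulation (adjusted p = 0.0118), but by 0.11 and without a call on the scale as deposited (adjusted p = 0.648), and the call was lost without acute library 1 or chronic library 2 (adjusted p = 0.0597 and 0.0618). With MEK inhibition it differed from chronic stimulation by -0.15 (adjusted p = 0.642).

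As a share of the long row, which needs no scaling between libraries, the upstream stretch held 24.6 ± 3.45% in acute, 30.3 ± 4.51% in chronic and 37.5 ± 1.78% in MEK-inhibited libraries (SD, n = 3). The MEK-inhibited shares of 36.3 to 39.5% lay above every chronic and acute share. A two-sided exact permutation test gave p = 0.1 for MEK-inhibited against chronic, 0.1 for MEK-inhibited against acute and 0.2 for chronic against acute, with adjusted p of 0.15, 0.15 and 0.2 over the 3 tests. The smallest p that 3 against 3 libraries allow is 0.1. The internal row runs 1.81 kb beyond the end of the long row, so the shares are approximate.

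Signal at either Entpd1 start was weak, at 0 to 9.42 per library in the pause region of the upstream start and 0 to 14.01 in that of the internal start. Some rows that begin further on held more, and none passed the filter. At 47802 bases after the start of the row used, means were 23.7, 8.42 and 17.3 in acute, chronic and MEK-inhibited libraries. At 48096 bases they were 38.9, 20.8 and 34.9. Chronic libraries were lowest on average at both, unlike in the gene body. At 69270 and 113653 bases the means were 28.6, 25.2 and 9.10, and 56.2, 34.5 and 25.2, lowest with MEK inhibition. A 3.33 kb row at the upstream start had gene-body means of 1.07, 2.65 and 2.40 in acute, chronic and MEK-inhibited libraries, and none of the libraries exceeded 7.19. The genes Gm16027 and AC166063.1, which lie inside the upstream stretch on the same strand, had group means of 0 to 0.266 and 0 to 3.65, and Gm8783 was not analysed here. Tctn3, whose end nearest to Entpd1 is 132 bases from it on the other strand, had 144 ± 19.7, 290 ± 102 and 227 ± 5.06 in acute, chronic and MEK-inhibited libraries. With the use of strand not given in the sources used here, its part in the upstream signal was not tested.

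**Figure D4:**
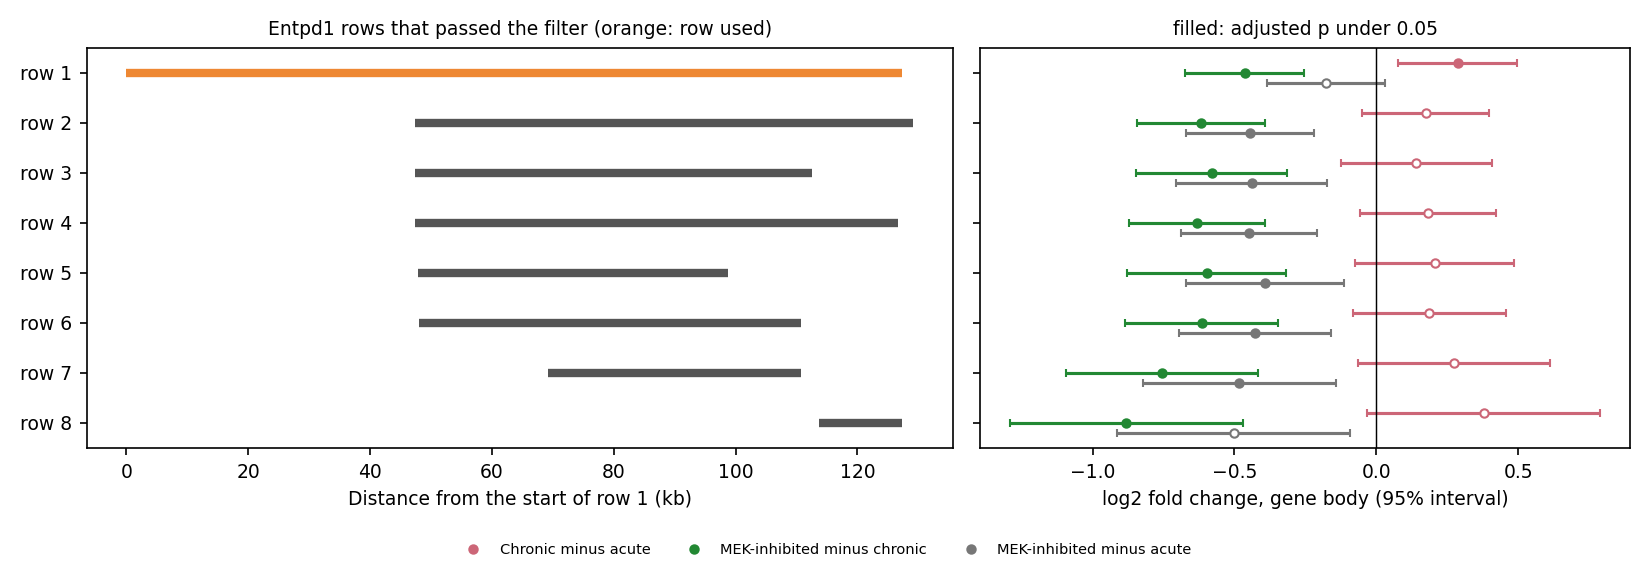
Left, the 8 Entpd1 rows that passed the filter by distance from the first start in kb, with the row used in orange. Right, log2 fold change of each row's gene-body signal with its 95% interval, in 3 comparisons; all 8 rows lie below 0 between MEK-inhibited and chronic stimulation, from -0.88 to -0.46, while chronic against acute turned negative for the row used on the scale as deposited.

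The 250 bases before the internal start (RefSeq, GRCm38.p6, chr19:40659520-40659769, plus strand) are shown because the rows that begin there fell together with MEK inhibition. Letters searched on both strands in windows from 250 bases before to 50 bases after a start were TGANTCA (AP-1), CCGGAA (ETS), GGAAAA (NFAT) and TGACG (the core of a cAMP response element), of which CCGGAA and GGAAAA share the letters GGAA; no matches overlap in this promoter. Capitals mark a GGAAAA, 233 bases before the start, and a TGACG on the other strand, 183 bases before it.
Entpd1 internal promoter: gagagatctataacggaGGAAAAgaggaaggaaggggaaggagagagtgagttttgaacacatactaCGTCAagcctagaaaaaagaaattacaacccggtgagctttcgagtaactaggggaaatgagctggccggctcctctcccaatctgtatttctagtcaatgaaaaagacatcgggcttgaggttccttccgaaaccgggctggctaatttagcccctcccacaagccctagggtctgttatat

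Such letters are common: 23.4% of 32851 promoters hold GGAAAA, 20.8% TGACG, 14.9% CCGGAA and 7.81% TGANTCA. Promoters were at hand for 4 of the 5 genes, with 2 for Entpd1. The upstream Entpd1 promoter held 1 TGACG, that of Ada held 3 CCGGAA, and those of Nt5e and Cd38 held none of the 4 motifs. These are matches of letters in a window and not measured sites.

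The balance of the enzymes can be given without any scaling, as the ratio of Nt5e to Entpd1 signal per kilobase within a library, using the internal Entpd1 row. It was 2.84, 2.98 and 2.85 in acute, 0.174, 0.124 and 0.308 in chronic, and 0.819, 0.556 and 0.815 in MEK-inhibited libraries. Nascent signal per kilobase of the AMP-consuming enzyme thus exceeded that of the ATP-consuming enzyme in every acute library and in none of the others. The log2 ratio was lower by 3.94 in chronic than in acute stimulation (log2 difference -3.94), higher by 1.94 with MEK inhibition than in chronic stimulation, and -2.01 between MEK-inhibited and acute stimulation. Each comparison had an exact permutation p of 0.1, two-sided and the smallest possible, and an adjusted p of 0.1 over 3 tests.

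Cd38, the NAD-consuming ectoenzyme, lies on chromosome 5 (GRCm38 43868553-43912375, plus strand) and was the weakest member per kilobase in acute and MEK-inhibited libraries. Its scaled gene-body signal was 195, 170 and 130 in acute, 289, 374 and 189 in chronic, and 397, 413 and 421 in MEK-inhibited libraries. The MEK-inhibited libraries were the highest and closest together, above all others, and chronic library 3 fell within the acute range. The means were 165 ± 32.7, 284 ± 92.6 and 410 ± 11.9 (SD, n = 3).

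Cd38 was higher by 1.31 on the log2 scale in MEK-inhibited chronic than in acute stimulation (SE 0.27, limma adjusted p = 0.0013), and kept this call under all alternatives run. From acute to chronic stimulation it rose by 0.73 (adjusted p = 0.0448), a call that was lost under all 3 other scalings, with values of 0.25 to 0.57 and adjusted p from 0.105 to 0.480. It was also lost in 7 of 9 leave-one-out fits, all but those without acute library 1 or chronic library 3, with adjusted p up to 0.198. With MEK inhibition it differed from chronic stimulation by 0.58 (95% interval 0.01 to 1.14, adjusted p = 0.168). Gm16014, which lies inside Cd38 on the same strand, had group means of 0.378 to 5.12, and Gm16015 on the other strand was not analysed here.

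The bases around the RefSeq start of Cd38 (RefSeq, GRCm38.p6, chr5:43868794-43868823, plus strand) lie 256 bases after the start of the row used, which bears on its pause-region values. The start base is in capitals.
Cd38 start: aaaaaaggaggagggGcaggctctgaccca

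At the first annotated start of Cd38 the pause region held 4.43, 1.78 and 11.9 in acute, 3.12, 59.5 and 9.02 in chronic, and 24.9, 17.4 and 36.3 in MEK-inhibited libraries. Chronic library 2 stood above all others, and the MEK-inhibited libraries lay above the acute ones. At the start 307 bases further on, chronic library 2 again had the highest value, 91.0. Neither row passed the filter.

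Adora2a, the adenosine receptor, rose with MEK inhibition relative to both chronic and acute stimulation. It lies on chromosome 10 (GRCm38 75316877-75334784, plus strand), overlaps no other annotated gene and has 4 rows, of which 3 passed the filter. Its scaled gene-body signal was 401, 493 and 347 in acute, 263, 319 and 305 in chronic, and 817, 721 and 786 in MEK-inhibited libraries. The MEK-inhibited libraries were well above all others, and every chronic library lay below every acute library. The means were 414 ± 73.8, 295 ± 29.0 and 775 ± 48.8 (SD, n = 3).

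Relative to chronic stimulation Adora2a rose by 1.38 on the log2 scale with MEK inhibition (95% interval 0.97 to 1.79, limma adjusted p = 4.01e-05), and 299 of the tested genes (1.88%) rose further. Relative to acute stimulation it rose by 0.91 (adjusted p = 0.00168). Both calls held under all alternatives run. The difference of -0.47 between chronic and acute stimulation (95% interval -0.88 to -0.06) was not called (adjusted p = 0.0721). It was called without acute library 3 (-0.60, adjusted p = 0.0409) and under each of the other scalings, from -0.95 to -0.63 with adjusted p of 0.000456 to 0.0126.

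The other Adora2a rows that passed the filter had the same order of group means, MEK-inhibited above acute above chronic. A row of 1.18 kb that did not pass had its lowest mean in acute libraries, with 4.88, 7.71 and 17.9 in acute, chronic and MEK-inhibited libraries. The 9.18 kb row that begins 225 bases further on had 205, 221 and 148 in acute, 103, 165 and 113 in chronic, and 401, 342 and 367 in MEK-inhibited libraries. Its log2 fold change with MEK inhibition relative to chronic stimulation was 1.53 (limma adjusted p = 0.000561). Acute and chronic libraries overlapped in this row. Between MEK-inhibited and chronic stimulation all 3 rows that passed had positive values, from 1.38 to 1.53, and 2 were called.

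Ada, which removes adenosine, did not differ beyond the spread of the libraries. It lies on chromosome 2 (GRCm38 163726584-163750239, minus strand). Its scaled gene-body signal was 272, 268 and 282 in acute, 298, 164 and 224 in chronic, and 400, 372 and 231 in MEK-inhibited libraries, and all groups overlapped. The acute libraries were close together, and chronic library 2 was the lowest and MEK-inhibited library 1 the highest. The differences were -0.30 between chronic and acute (95% interval -0.87 to 0.28, limma adjusted p = 0.431), 0.54 between MEK-inhibited and chronic (-0.04 to 1.11, adjusted p = 0.21) and 0.24 between MEK-inhibited chronic and acute stimulation (-0.33 to 0.81, adjusted p = 0.572). On the scale as deposited the first of these became a called -0.76 (adjusted p = 0.0378), and the last turned to -0.07 without a call.

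Pkig, an inhibitor of protein kinase A whose annotated end is 425 bases from Ada on the other strand, had 307 ± 33.0, 1191 ± 254 and 1176 ± 42.4 in acute, chronic and MEK-inhibited libraries. Its part in the Ada values was not tested. The row used for Ada begins at the RefSeq start itself (RefSeq, GRCm38.p6, chr2:163750225-163750254, minus strand). It is shown to go with its pause-region values, with the start base in capitals.
Ada start: tctctctgtgggcgtAgcgtgggcggggct

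The Ada pause region held 33.7, 21.3 and 53.8 in acute, 12.5, 19.8 and 27.0 in chronic, and 20.2, 21.9 and 19.1 in MEK-inhibited libraries. The acute libraries reached highest, and the groups overlapped. None of the 5 genes passed the filter in the pause region with the row used, so none was tested there or for pausing, the pause region relative to the gene body. The backgrounds for the pause region were 10.7% called between chronic and acute, 2.96% between MEK-inhibited and chronic and 5.85% between MEK-inhibited and acute stimulation. For pausing limma called 0 of 7413 genes (0.0%) in each comparison, and 741 (10.0%), 396 (5.34%) and 572 (7.72%) had an unadjusted p under 0.05. With no filter, 0 of the 5 members were called in either measure, and unadjusted p-values under 0.05 were found for 0, 0 and 1 of them in the pause region and for 1, 1 and 1 in pausing. The gene behind the pausing values was Nt5e in each comparison, read at the first annotated start.

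Genes whose gene-body pattern over the 9 libraries was most like each member's were named by Pearson's r of log2 values. The groups share these libraries and their scaling, so r is a description. For Nt5e these were Fam168b (r = 0.99), Cep97 (0.99) and Tmem59 (0.99), and 587 genes had r above 0.9. For Entpd1 they were Elovl6 (0.97), Tmem33 (0.97) and Map6 (0.96), and for Cd38 Hdac4 (0.98), Rapgef2 (0.98) and Mphosph9 (0.98). For Adora2a they were Ssh1 (0.99), Il10ra (0.98) and Marveld2 (0.98). For Ada they were Kdm4a (0.97), Klhl12 (0.94) and Klhl20 (0.93), and only 5 genes in all had r above 0.9. Of the genes named here only Cep97, Ssh1, Klhl12 and Klhl20 overlap no other annotated gene, so the rest are uncertain.

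The likeness did not extend to size. Fam168b had means of 6045, 4342 and 4873 in acute, chronic and MEK-inhibited libraries, a far shallower fall than that of Nt5e, and Cep97 had 3164, 1000 and 1643. Il10ra, the receptor chain for interleukin 10, had 5443, 4587 and 9466 in the same order, as in Adora2a highest with MEK inhibition. Among the members themselves, r over the 9 libraries was -0.88 between Entpd1 and Adora2a, -0.67 between Nt5e and Cd38 and 0.55 between Cd38 and Adora2a. The last of these was the highest r of any pair.

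Other genes of the same pathways were read from 4 lists, which leave out the members. Over all 15942 tested genes the median log2 fold change was -0.01 between chronic and acute, 0.01 between MEK-inhibited and chronic and -0.03 between MEK-inhibited chronic and acute stimulation. Directions for the lists hold for the trimmed-mean scaling; on the scale as deposited more genes were lower and fewer higher in chronic than in acute stimulation in each list. The genes named kept their sign under every scaling run.

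Of 38 genes for other purine ectoenzymes and nucleoside handling, 28 were tested. Between chronic and acute stimulation 10 rose and 6 fell, with a median of 0.11 that turned to -0.36 on the scale as deposited. Dck, the kinase of deoxycytidine salvage, rose from 647 ± 53.9 to 1953 ± 258 (SD, n = 3; log2 fold change 1.58, limma adjusted p = 5.05e-08). Adk, which phosphorylates adenosine inside the cell, rose from 4702 ± 261 to 9386 ± 1708 (0.98, adjusted p = 2.15e-06) and, with 6029 ± 308 in MEK-inhibited libraries, fell by 0.62 from chronic stimulation (adjusted p = 0.00069). Entpd7, an intracellular relative of Entpd1, rose by 1.15, a rise that overlapping genes make uncertain.

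Among the genes that fell was Dpp4, the surface peptidase CD26. It had 3008 ± 160 in acute, 676 ± 94.5 in chronic and 1431 ± 274 in MEK-inhibited libraries, with log2 fold changes of -2.15 (limma adjusted p = 1.94e-09), 1.07 (adjusted p = 3.85e-05) and -1.09 (adjusted p = 2.16e-05). Dpp4 and Nt5e thus had the same order of groups, acute above MEK-inhibited above chronic. Entpd5 followed it too, with 787 ± 9.72, 243 ± 45.6 and 507 ± 29.3, while Acpp, a phosphatase that can also turn AMP into adenosine, fell from 603 ± 34.0 to 195 ± 59.9 and had 263 ± 64.5 with MEK inhibition. In this list 3 genes rose and 4 fell between MEK-inhibited and chronic stimulation, and 5 rose and 6 fell between MEK-inhibited and acute stimulation. Slc28a2, a nucleoside transporter that overlaps another gene, fell by 1.31 in the latter comparison, from 1221 ± 211 to 486 ± 33.7.

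Of 18 other purine receptor genes 10 were tested. In chronic relative to acute stimulation 3 rose and 3 fell. The P2rx7 gene, whose product is a channel opened by extracellular ATP and NAD-dependent ribosylation, fell from 3906 ± 658 to 763 ± 104 (log2 fold change -2.34, limma adjusted p = 5.23e-10) and had 1002 ± 135 with MEK inhibition. Adora2b, the low-affinity adenosine receptor, had 302 ± 67.0, 554 ± 55.8 and 232 ± 37.6 in acute, chronic and MEK-inhibited libraries. It rose by 0.88 from acute to chronic stimulation (adjusted p = 0.00617), a call lost with library totals (0.40, adjusted p = 0.175) and on the scale as deposited (0.42, adjusted p = 0.161). It fell by 1.24 with MEK inhibition relative to chronic stimulation (adjusted p = 0.000737). Adora2a and Adora2b thus moved in opposite directions with MEK inhibition. P2ry12 went the way of Adora2b, with 93.6 ± 25.7, 279 ± 25.0 and 52.9 ± 24.0, though it overlaps another gene. In this list 1 gene rose and 2 fell between MEK-inhibited and chronic stimulation, and 0 rose and 4 fell between MEK-inhibited and acute stimulation.

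Of 42 symbols for NAD consumption and synthesis, 33 gave 34 tested genes, since Nnt names 2 genes. Between chronic and acute stimulation 5 rose and 8 fell, and between MEK-inhibited and chronic stimulation 6 rose and 0 fell, with a median of 0.14. Art2b, a surface enzyme that uses NAD to modify proteins, fell from 813 ± 116 to 190 ± 76.6 (log2 fold change -2.15, limma adjusted p = 3.76e-05) and had 224 ± 85.5 with MEK inhibition. Parp14 had 5441 ± 161, 1818 ± 229 and 3745 ± 222 in acute, chronic and MEK-inhibited libraries, again with the MEK-inhibited group between the others. Nadsyn1, which makes NAD from its acid precursor, had 133 ± 29.0, 159 ± 28.6 and 297 ± 15.7 and rose by 0.90 with MEK inhibition relative to chronic stimulation (adjusted p = 0.0348). Nampt, the salvage enzyme, fell by 0.38 between acute and MEK-inhibited chronic stimulation (adjusted p = 0.00656). In that comparison 5 genes of the list rose and 4 fell.

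Of 45 genes for cAMP and protein kinase A signalling, the route below Adora2a, 42 were tested. Between chronic and acute stimulation 8 rose and 16 fell, with a median of -0.29. Between MEK-inhibited and chronic stimulation 8 rose and 5 fell, and between MEK-inhibited and acute stimulation 6 rose and 10 fell. Adcy5, an adenylyl cyclase, had 709 ± 30.8, 183 ± 24.3 and 1777 ± 146 in acute, chronic and MEK-inhibited libraries, so it fell by 1.93 under chronic stimulation and rose by 3.25 with MEK inhibition (limma adjusted p = 3.83e-08 and 1.66e-10). Adcy4, another cyclase, went the other way, with 373 ± 46.0, 1233 ± 287 and 171 ± 40.6, and fell by 2.81 with MEK inhibition (adjusted p = 4.06e-08).

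Pde4b, a phosphodiesterase that breaks down cAMP, had 1353 ± 86.7, 3580 ± 421 and 825 ± 162, and fell by 2.12 with MEK inhibition relative to chronic stimulation (limma adjusted p = 5.03e-09). Pde2a, which also breaks down cAMP but overlaps another gene, did the reverse, with 917 ± 143, 250.4 ± 96.5 and 626 ± 23.4. Adcy5 overlaps another gene too. Pkig, described above as the neighbour of Ada, belongs to this list and rose by 1.92 from acute to chronic stimulation.

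**Figure D5:**
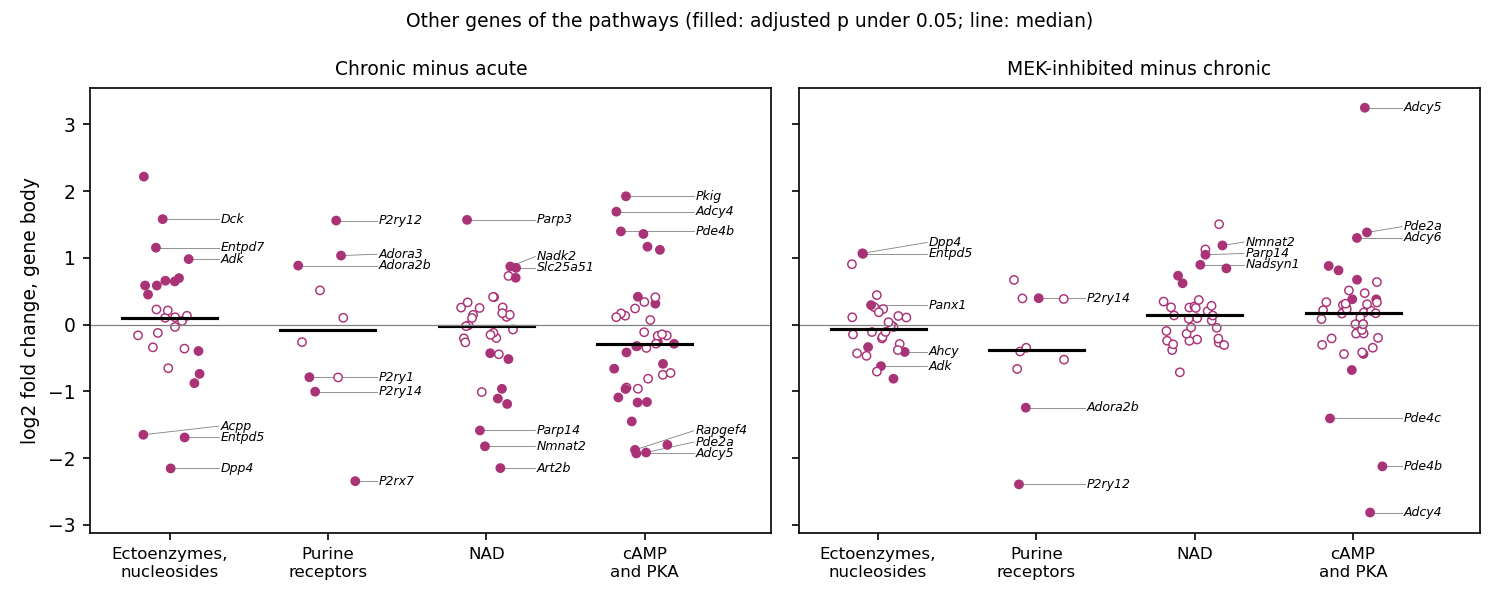
Log2 fold change of gene-body signal (vertical axis) for the tested genes of 4 lists around the members, chronic against acute at left and MEK-inhibited against chronic at right. Filled points had an adjusted p under 0.05 and black lines are medians, under the trimmed-mean scaling; the median of 0.11 at left for ectoenzymes and nucleoside handling turns negative on the scale as deposited. Adcy5 at 3.25 and Adcy4 at -2.81 mark the extremes at right.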

How the data were processed

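Nascent RNA-seq was measured in 9 mouse CD8+ T cell libraries, 3 per group. The authors deposited a signal per transcript in a gene-body and a pause-region table, 118482 rows each, named as counts. The low values of each library are whole multiples (within 0.02) of a step of 0.764 to 1.06, and 4 steps were more frequent than 1, so the values were treated as scaled signal and not as reads. The submitters' processing notes name FastQC 0.12.0, Trim Galore 0.6.10, STAR 2.7.0a, SAMtools 1.19.2, deepTools 0.1.9, R 4.1.2 and the build mm10, without roles. Region limits, counting and use of strand are not given in the sources used here.

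Rows were matched to GENCODE M21 (GRCm38): 117346 with their version, 383 without it, and 753 not at all. Matched rows lay on chromosomes 1 to 19. Overlapping genes, 49.3% of all, are uncertain. Each table was scaled by a trimmed mean of log ratios (trimmed at each end: 30% for log ratios, 5% for mean levels). One limma model (3.58.1, R 4.3.3; trend and robust) held 1 mean for each group and described log2(signal + 5) over all genes with 50 or more in 3 or more libraries, with Benjamini-Hochberg adjustment within a comparison and a threshold of 0.05. Folds of weak genes are understated on this scale. Scripts were tested on simulated data. The members, lists and motifs were chosen with earlier results of these data known.

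Genes named beyond the members are, per member, the 3 with the highest correlation, and, per list and comparison, up to 3 called in each direction with the largest change, a mean of at least 100 in the higher group and groups that do not overlap; some genes of the lists are not reported here. Dusp6, Tctn3, Pkig and genes inside the members were added as checks. Marker lists covered CD8 T (9 of 9 passed the filter), helper and regulatory T (2 of 4), B (2 of 6), myeloid (3 of 7), natural killer (1 of 4, Eomes), red (0 of 3) and stromal or endothelial cells (1 of 4, Pecam1). Alternatives were other scalings, no filter, a pseudocount of 0.5, the longest transcript, 2 groups only, a replicate block and leaving out each library.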

Additional observations from a re-analysis of the deposited data

How the results depend on the processing

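The number of members called between chronic and acute stimulation was 3 and became 1 with no filter and 1 with only the 2 groups compared; leaving out each library in turn gave 1 to 3. It stayed 3 on the scale as deposited and with library totals, but there Adora2a and Ada took the place of Entpd1 and Cd38. Without the ribosomal RNA-like rows it was 2, Nt5e and Adora2a. Between MEK-inhibited and chronic, and between MEK-inhibited and acute stimulation, it was 3 in every leave-one-out fit. Entpd1 between chronic and acute stimulation, 0.29 on the log2 scale, was reversed to -0.19 on the scale as deposited and to -0.20 with library totals. Of the gene-body values of single members under the alternatives, 223 kept their call (with its direction) or stayed without one, where the sign was not counted, 21 lost a call, 9 gained a call in the same direction and 2 called values reversed; the cause was not tested. With library totals the higher and lower calls over all genes between chronic and acute stimulation were 1096 and 6846, against 2846 and 2463, and without the ribosomal RNA-like rows 2096 and 3759; on the scale as deposited they were 1134 and 6713. Between MEK-inhibited and chronic stimulation they were 1769 and 741 with library totals and 1979 and 721 as deposited, against 1361 and 1300, and between MEK-inhibited and acute stimulation 955 and 4965, 1023 and 4542 as deposited and 1572 and 3151 without the ribosomal RNA-like rows, against 2091 and 1989. Genes called in the 4 lists were 59, 29 and 40 in the 3 comparisons, and 48 to 57, 22 to 34 and 33 to 44 when a library was left out. The number of genes called in each list is given above, and 33.3, 16.7 and 25.6% of all tested genes were called. Between chronic and acute stimulation the called share was 57.1% for ectoenzymes and nucleoside handling and 60.0% for purine receptors. It was 38.2% for NAD consumption and synthesis and 57.1% for cAMP and protein kinase A signalling. The labels do not say whether replicate numbers pair the libraries. Same-numbered acute and chronic libraries had correlations of their deviations of 0.07 to 0.10, against -0.08 to -0.01 for different numbers. Acute and MEK-inhibited ones had -0.53 to -0.01, against -0.37 to 0.51 for different numbers. Chronic and MEK-inhibited ones had -0.15 to 0.09, against -0.11 to 0.16. Same-numbered libraries were thus the more alike only between acute and chronic stimulation, and weakly so. A replicate block kept all calls of the members (3, 3 and 3), with Nt5e at -3.75 between chronic and acute stimulation, and called 5349, 2733 and 4101 genes in all. Depth in reads is unknown, so weak pause-region values have no counting error.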
